A study of Mus musculus with 9 samples.

Results

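The genes described here encode proteins that detect viral or misplaced nucleic acid in the cytosol. They were chosen by name, as the rows of the deposited table for Oas1a, Oas1g, Oas2 and Oas3 (oligoadenylate synthetases), Ddx58, Ifih1 and Dhx58 (the RIG-I-like receptors RIG-I, MDA5 and LGP2), Eif2ak2 (the kinase PKR), Mb21d1 (the DNA sensor cGAS) and Tmem173 (the adaptor STING). These are 10 of the 24341 genes in the table, and all 10 passed the filter on low values used for testing. RNA came from the livers of wild-type (WT) C57BL/6 mice, 2 days after treatment. The 3 anti-CD40 mice (mice 2, 5 and 9) received an agonist antibody against CD40, a receptor of antigen-presenting cells, and the 6 control mice (mice 3, 4, 7, 8, 11 and 12) are labelled PBS. The labels give no age; by the study's methods its mice were 8 to 12 weeks old and sex-matched unless stated otherwise, and anti-CD40 mice whose blood B cells had not dropped were left out.

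RIG-I and MDA5 bind double-stranded RNA, RIG-I favouring uncapped ends, and signal through the mitochondrial adaptor MAVS, and LGP2 modulates them. Oligoadenylate synthetases make a short nucleotide chain on binding double-stranded RNA, and PKR stops translation by phosphorylating eIF2alpha. cGAS makes a cyclic dinucleotide on binding DNA, which activates STING. Most of these genes are known as interferon-stimulated genes. Interferon turns on their transcription through a DNA element called ISRE, bound by a complex that holds STAT2 and IRF9, and the same pathways in turn lead to interferon production.

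Promoter sequences are shown because all 10 genes were higher in treated livers, and because the ISRE is the element by which interferon is known to act on them. RefSeq (GRCm38.p6, the same build as the mm10 positions of the table) gave a window from 250 bases before to 50 bases after the start site for 7 of the 10 genes, namely Oas1a, Oas1g, Oas3, Ddx58, Ifih1, Eif2ak2 and Mb21d1. Windows for Oas2, Dhx58 and Tmem173 were not used here. The ISRE core was searched on both strands as GAAA, any 2 bases, then GAAA again, and it occurred in 6 of the 7 windows, against 3.44% of 32851 windows of this length. The genes were chosen by name and most are known interferon-stimulated genes, so such matches were likely in advance. The matches say nothing about these livers, and a link to the higher levels was not tested. In Oas1a and Oas1g a pair of overlapping matches began 20 and 14 bases, and 18 and 12 bases, before the start site. The stretches before the start site are shown 5′ to 3′ on the strand of each gene, with ISRE core matches in capitals (Oas1a at chr5:120907526-120907635, Oas1g at chr5:120887614-120887721 and Oas3 at chr5:120777660-120777759, all on the minus strand).
Oas1a: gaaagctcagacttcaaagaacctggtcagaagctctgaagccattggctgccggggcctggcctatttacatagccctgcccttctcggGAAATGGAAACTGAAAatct
Oas1g: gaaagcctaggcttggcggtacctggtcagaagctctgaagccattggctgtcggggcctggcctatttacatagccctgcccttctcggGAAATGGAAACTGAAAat
Oas3: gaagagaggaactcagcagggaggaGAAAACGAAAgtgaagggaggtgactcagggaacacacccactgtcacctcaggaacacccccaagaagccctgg

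Aligned without gaps at an offset of 2 bases, the Oas1a and Oas1g windows were identical at 207 of 298 bases, and at 93 of the 100 bases before the Oas1a start site. The match of Oas3 lay farther upstream, beginning 75 bases before the start site. In Ddx58, Ifih1 and Eif2ak2 the match lay just after the start site, within short stretches at chr4:40239804-40239833, chr2:62646206-62646233 and chr17:78882535-78882564 (minus strand). In Ddx58 it was on the strand opposite to the gene.
Ddx58: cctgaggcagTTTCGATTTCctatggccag
Ifih1: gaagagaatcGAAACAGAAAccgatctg
Eif2ak2: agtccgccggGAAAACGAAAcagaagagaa

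The Mb21d1 window held no ISRE core match. Nor did the other windows searched, those of the kinase genes Eif2ak1 and Eif2ak3, the adaptor gene Mavs and the transcription factor genes Irf3 and Irf7. Of these genes, described below, Eif2ak3 and Irf7 were higher in treated livers and Mavs and Irf3 lower. The GAS core, an element of interferon gamma signalling, was searched as TTCNNNGAA, which reads the same on both strands. It occurred in the Oas1a and Eif2ak2 windows, in that of Eif2ak3, and in 8.30% of all windows. A match is a stretch of letters and was not tested for binding.

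**Figure D1:**
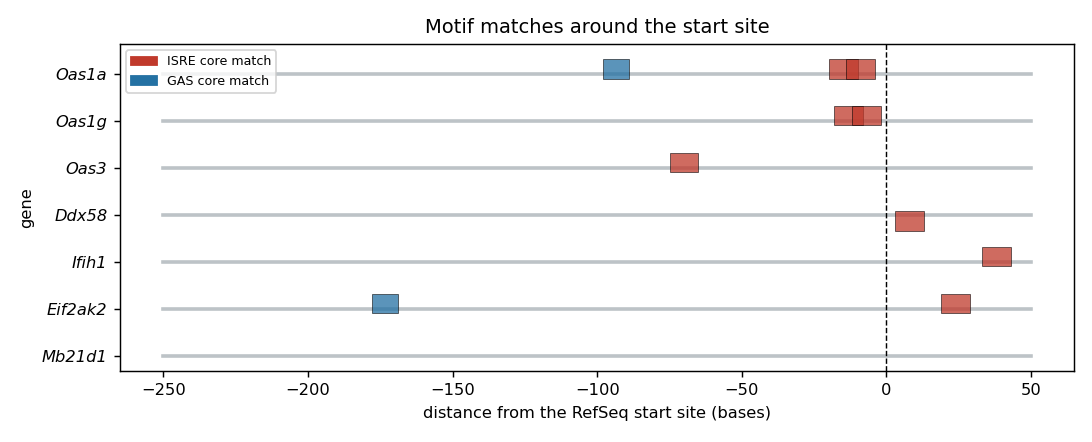
Positions of ISRE core (red) and GAS core (blue) matches relative to the RefSeq start site (dashed line, in bases) in the 7 windows, with matches on the opposite strand drawn slightly lower. The ISRE core matches of Oas1a and Oas1g lie just before the start site, and those of Ddx58, Ifih1 and Eif2ak2 just after it.

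In the table every gene has an FPKM value (sequenced fragments relative to transcript length and library size) per mouse, with a floor of 0.01. Libraries were made from the 3′ ends of transcripts. FPKM still divides by transcript length, so the levels of different genes are only loosely comparable, whereas length cancels in a fold change. The read totals of the libraries are not known. The steps between low values gave a depth relative to the geometric mean of all mice of 0.991 to 1.13 in anti-CD40 mice and 0.870 to 1.06 in control mice, and they gave whole reads for all 10 sensor genes in every mouse, from 6 to 956. Reads given below are the smallest whole numbers that match those steps. Fold changes are on the scale of log2(FPKM + 0.1), tested with limma over the 13807 genes that passed the filter, with Benjamini-Hochberg adjustment, and each comes with its SE. In bulk liver, fewer cells of a type and less RNA per cell cannot be told apart.

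All 10 sensor genes were higher in anti-CD40 livers at an adjusted p under 0.05, where 45.1% of all genes tested were called, 23.5% higher and 21.7% lower. Their log2 fold changes ranged from 0.75 for Eif2ak2 to 2.53 for Tmem173, with a median of 1.79 beside a median of 0.0056 over all genes tested. A fold change of 2 or more was reached by 8 of the 10, against 13.7% of all genes. In 9 of the 10 every anti-CD40 mouse was above every control mouse, which held for 22.7% of all genes tested, and the exception was Ifih1. Single genes were also tested by exact permutation (84 ways to place the group labels), which gave its smallest possible p, 0.0238, for these 9 genes and 0.0476 for Ifih1. The smallest p follows wherever the groups do not overlap, in either direction 42.4% of all genes tested, so it adds nothing to that count.

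**Figure D2:**
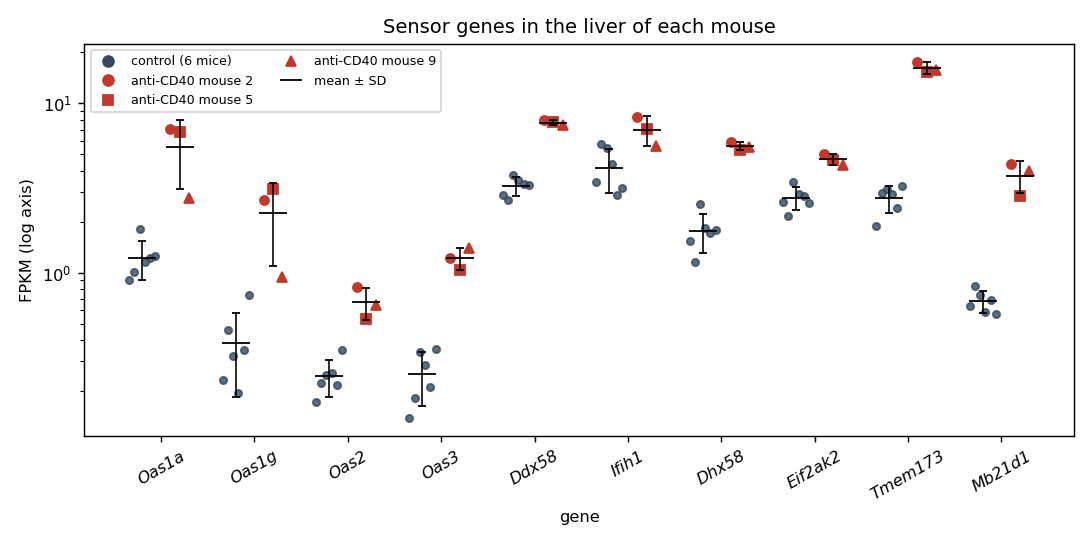
FPKM of the 10 sensor genes (log axis) in each of 6 control mice (dark points) and 3 anti-CD40 mice (red), with the mean and SD of each group. The groups overlap only for Ifih1. Mouse 9 (triangle) is the lowest anti-CD40 mouse for Oas1a and Oas1g and the highest for Oas3.

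The oligoadenylate synthetase genes lie side by side on chromosome 5, all on the minus strand. Oas1a (chr5:120896257-120907525), an enzyme of the small OAS1 class, had FPKM of 7.05, 6.78 and 2.75 in anti-CD40 mice 2, 5 and 9. In control mice it ranged from 0.903 to 1.80 with a median of 1.19. Mouse 9 was well below the other anti-CD40 mice but above every control mouse. The group means were 5.53 ± 2.41 (SD, n = 3) and 1.22 ± 0.314 (SD, n = 6), and the log2 fold change was 2.00 ± 0.30 (adjusted p = 0.000377). Oas1g (chr5:120876142-120887613), a close paralog of Oas1a, had FPKM of 2.70, 3.11 and 0.942 in mice 2, 5 and 9 and from 0.195 to 0.738 (median 0.336) in control mice. Again mouse 9 was the lowest of its group and stood closer to control mouse 12, the highest control, than to mice 2 and 5. On the log2 scale it rose by 2.22 ± 0.41 (adjusted p = 0.00131). The reads of Oas1a were 263, 238 and 90 and those of Oas1g 108, 117 and 33 in mice 2, 5 and 9, so the gap of mouse 9 does not rest on a handful of reads.

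Oas1a and Oas1g cannot be fully told apart in these data. Of the 50-base words in the last 500 bases of the longest GENCODE M21 transcript, 56.1% of those of Oas1a also occur in Oas1g transcripts and 30.2% of those of Oas1g in Oas1a transcripts. For Oas3 the share found in other genes was 4.88%, and for the remaining 7 sensor genes it was 0. How the authors' pipeline divided such reads is not given in the sources used here.

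Oas2 (chr5:120730333-120749848), the middle-sized enzyme with a pair of OAS units, was the lowest of the 10 genes in FPKM in both groups. It had 0.825, 0.537 and 0.647 in mice 2, 5 and 9 and 0.172 to 0.348 in control mice (median 0.238), which rested on 41 to 67 and on 12 to 23 reads. The groups did not overlap, and the log2 fold change was 1.16 ± 0.21 (adjusted p = 0.00112). Oas3 (chr5:120753098-120777659), the large enzyme that favours long RNA, had 1.22, 1.04 and 1.40 in mice 2, 5 and 9 and 0.139 to 0.356 in control mice (median 0.248). Here mouse 9 was the highest of all mice. On the log2 scale Oas3 rose by 1.94 ± 0.24 (adjusted p = 0.000108). The added 0.1 FPKM is worth about 7.11 reads of Oas2 and 8.77 reads of Oas3, so these folds are understated. With 0.01 added instead, they were 1.43 and 2.29, and with 1 added, 0.42 and 0.83. The folds of other genes also moved, to 2.49 with 0.01 and 1.17 with 1 added for Oas1g. For Mb21d1, described below, they were 2.44 and 1.49.

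The RIG-I-like receptor genes lie on different chromosomes. Ddx58 (chr4:40203777-40239825), which encodes RIG-I, varied least of the 10 among treated mice in relative terms, with FPKM of 7.95, 7.71 and 7.43 in mice 2, 5 and 9. In control mice it ranged from 2.68 to 3.77 (median 3.32), and no control mouse approached the treated ones. The mean went from 3.24 ± 0.408 to 7.70 ± 0.263 (SD), a log2 fold change of 1.23 ± 0.13 (adjusted p = 3.78e-05). Dhx58 (chr11:100694884-100704271), which encodes LGP2, had 5.93, 5.30 and 5.55 in mice 2, 5 and 9 and 1.16 to 2.55 (median 1.75) in control mice. The groups were well apart, and the log2 fold change was 1.64 ± 0.20 (adjusted p = 9.93e-05).

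Ifih1 (chr2:62595793-62646255), which encodes MDA5, had the weakest evidence of the 10 genes. Its FPKM was 8.34, 7.06 and 5.61 in mice 2, 5 and 9, and 2.89 to 5.72 (median 3.90) in control mice. Control mouse 4, at 5.72, was above anti-CD40 mouse 9. On the log2 scale the rise was 0.76 ± 0.24 (adjusted p = 0.0233). Without mouse 2 it was 0.63 (adjusted p = 0.110) and without mouse 5 it was 0.75 (adjusted p = 0.0696), and with no filter on low values the adjusted p was 0.0668. The spread was not one of low counts. Over control mice the reads of Ifih1, from 283 to 611, varied 34.7 times as much as counting error alone gives. For Ddx58, with 259 to 371 reads, this multiple was 4.89. The multiple grows with the number of reads, so the 5.36 of Dhx58, on 53 to 117 reads, cannot be set beside it. In FPKM the control mice had 4.17 ± 1.20 (SD) for Ifih1 and 1.77 ± 0.457 for Dhx58.

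Eif2ak2 (chr17:78852550-78882572), which encodes PKR, had FPKM of 5.02, 4.65 and 4.34 in mice 2, 5 and 9. Control mice ranged from 2.16 to 3.45 (median 2.71). The groups did not overlap but the difference was small, with a log2 fold change of 0.75 ± 0.15 (adjusted p = 0.00209). The other kinases of eIF2alpha serve as a comparison. Eif2ak3 (PERK, the kinase of the endoplasmic reticulum) was higher, at 8.30 ± 0.244 against 4.92 ± 1.26 (SD), with a log2 fold change of 0.78 ± 0.20 (adjusted p = 0.00916). Eif2ak1 (HRI, which responds to heme) had a log2 difference of -0.37 ± 0.26 (adjusted p = 0.271), and Eif2ak4 (GCN2, which responds to amino acid shortage) one of 0.05 ± 0.14 (adjusted p = 0.777).

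Tmem173 (chr18:35733678-35740554), which encodes STING, had the largest fold change of the 10. Its FPKM was 17.6, 15.2 and 15.7 in mice 2, 5 and 9, and 1.88 to 3.23 (median 2.93) in control mice. Every treated mouse was several-fold above the highest control. The mean went from 2.75 ± 0.507 to 16.2 ± 1.23 (SD), a ratio of 5.89 and a log2 fold change of 2.53 ± 0.17 (adjusted p = 2.42e-06). Mb21d1 (chr9:78430518-78443237, named Cgas in newer annotation), the enzyme upstream of STING, had 4.39, 2.85 and 4.00 in mice 2, 5 and 9 and 0.571 to 0.835 (median 0.664) in control mice. On the log2 scale it rose by 2.29 ± 0.18 (adjusted p = 5.34e-06). Mouse 5 was the lowest of the treated mice for both genes.

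In FPKM the order of the 10 genes was led by Ifih1 (4.17 ± 1.20, SD) in control livers, followed by Ddx58, Eif2ak2, Tmem173, Dhx58, Oas1a, Mb21d1, Oas1g, Oas3 and Oas2. In this order only Oas1a and Mb21d1 are neighbours whose values did not overlap between control mice. In anti-CD40 livers Tmem173 led (16.2), above Ddx58 (7.70) without overlap, followed by Ifih1, Dhx58, Oas1a, Eif2ak2, Mb21d1, Oas1g, Oas3 and Oas2. Of the later neighbours only Oas3 and Oas2 did not overlap. Tmem173 thus had rank 4 in control and rank 1 in treated livers. The order is per length and could differ on another scale.

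The order of the treated mice differed from gene to gene. Mouse 2 had the highest anti-CD40 value for 8 of the 10, mouse 5 for Oas1g and mouse 9 for Oas3. Relative to the control mean, mouse 9 was higher by 1.14 on the log2 scale for Oas1a and by 1.20 for Oas1g, where mice 2 and 5 were higher by 2.41 to 2.82. For Ddx58, in contrast, the 3 mice were higher by 1.28, 1.23 and 1.18. In anti-CD40 mice the reads of Oas1a varied 34.9 times as much as counting error gives, and those of Oas1g 20.9 times, against 2.44 times for Oas3 and 0.879 times for Ddx58. Among control mice, mice 7 and 12 each had the highest value for 4 genes and mouse 3 the lowest for 4.

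**Figure D3:**
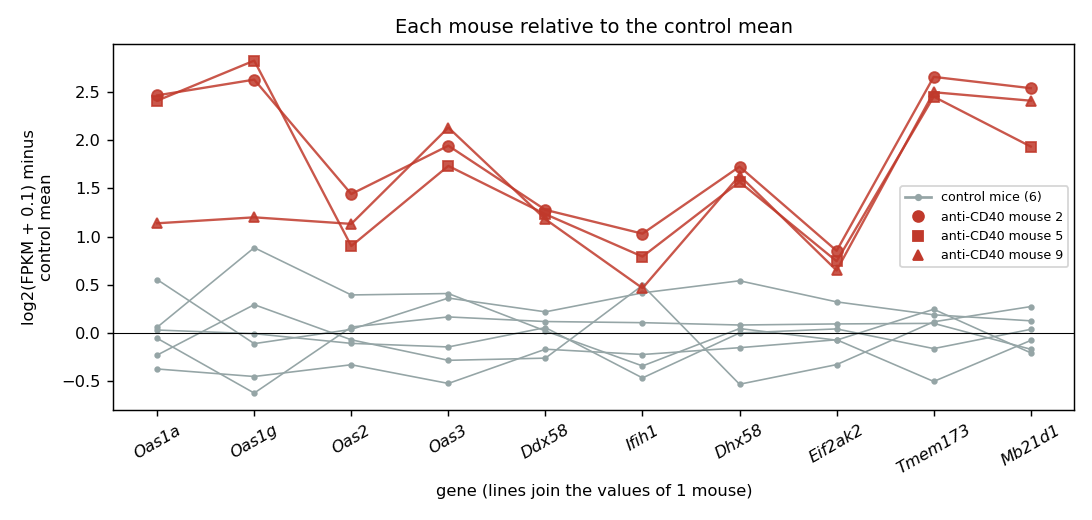
Difference of log2(FPKM + 0.1) from the control mean for the 10 sensor genes (x axis) in each mouse, with 1 line per mouse (anti-CD40 red, control grey). The line of mouse 9 lies 1.14 and 1.20 above the control mean at Oas1a and Oas1g, below those of mice 2 and 5, and close to them at Ddx58, Dhx58 and Tmem173.

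Whether genes changed by different amounts was asked of 13 pairs, by the difference of log2(FPKM + 0.1) between both genes within each mouse. For 5 pairs the groups did not overlap, each with the smallest p the exact permutation test allows (0.0238, two-sided, adjusted p = 0.0619 over the 13 pairs), so no pair passed 0.05 after adjustment. Oas2 over Oas3 went from -0.01 ± 0.20 in control to -0.79 ± 0.25 (SD) in anti-CD40 mice, a change of -0.78 that was -0.40 with 1 FPKM added and -0.87 with 0.01 added. Among the receptor genes, Ddx58 over Dhx58 went from 0.87 ± 0.19 to 0.45 ± 0.07, and Ifih1 over Dhx58 from 1.18 ± 0.54 to 0.30 ± 0.25. The difference between groups was 1.12 for Eif2ak2 over Eif2ak1 and 0.70 for Eif2ak2 over Eif2ak4. Eif2ak2 over Eif2ak3 went from -0.79 ± 0.47 to -0.82 ± 0.14 (exact permutation p = 0.952), and Mb21d1 over Tmem173 from -1.86 ± 0.32 to -2.10 ± 0.24 (exact permutation p = 0.310), a change of -0.24 that was -0.72 with 1 added and -0.14 with 0.01 added.

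**Figure D4:**
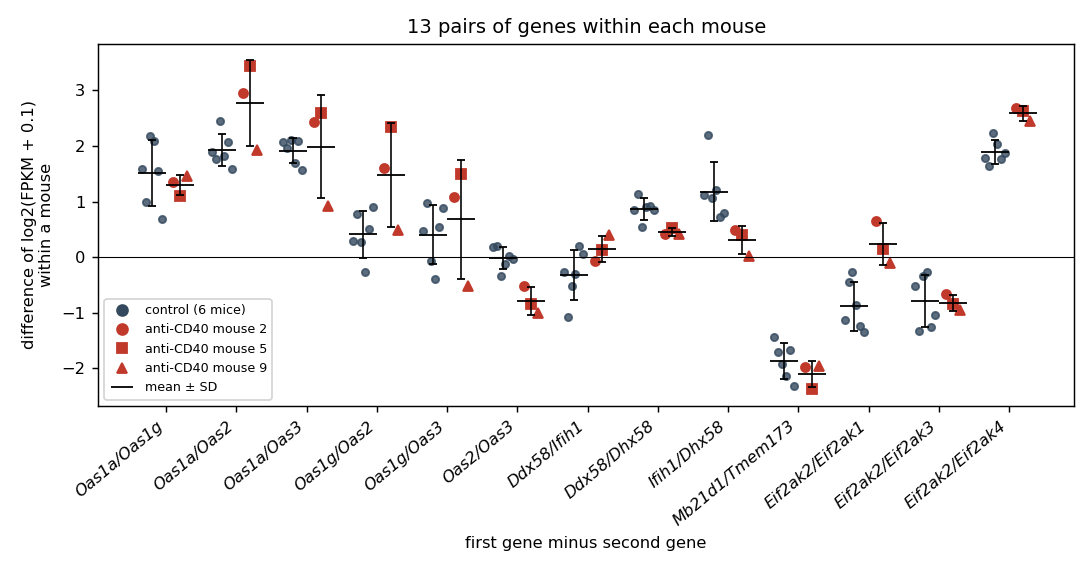
Difference of log2(FPKM + 0.1) between the first and the second gene of 13 pairs within each mouse, with mean and SD per group (6 control mice, dark; 3 anti-CD40 mice, red). The groups are apart for Oas2/Oas3, Ddx58/Dhx58, Ifih1/Dhx58, Eif2ak2/Eif2ak1 and Eif2ak2/Eif2ak4.

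The genes around the sensors were taken as lists by pathway, to be read beside the 23.5% of all genes tested that were called higher and the 21.7% called lower. Like the sensor genes, these lists were chosen with earlier results of these data known, so their shares are not an independent comparison. Of 6 other OAS genes and genes that act on their pathway tested, of 10 listed, 4 were higher (66.7%) and none lower, with a median log2 fold change of 1.05. Oasl2, an OAS-like protein, rose most, from 1.09 ± 0.282 to 6.56 ± 0.460 (SD) FPKM, a log2 fold change of 2.51 ± 0.20 (adjusted p = 5.82e-06). Oas1b rose by 1.09 and Oasl1, which binds RNA, by 1.02 on the log2 scale (adjusted p = 0.00106 and 0.0108). Oas1f and Oas1h were at the floor in all 9 mice.

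In the list of RIG-I-like receptor signalling, 8 of 21 genes were higher (38.1%, beside 23.5% of all genes) and 4 lower (19.0%, beside 21.7%), with a median of 0.23. Those that rose included Traf3, an adaptor downstream of MAVS (log2 fold change 1.59 ± 0.13, adjusted p = 7.19e-06), Zc3hav1, the RNA-binding antiviral protein ZAP (1.32 ± 0.14, adjusted p = 4.23e-05), and Trim25, a ubiquitin ligase of RIG-I (0.43 ± 0.15, adjusted p = 0.0380). The adaptor of the pathway moved the other way. Mavs was 2.28, 2.71 and 2.73 in mice 2, 5 and 9 and 5.03 to 7.50 in control mice. Every treated mouse was below every control mouse, with a log2 fold change of -1.19 ± 0.16 (adjusted p = 0.000175). Rnf5, a ubiquitin ligase that acts on STING and MAVS, was also lower (-1.54 ± 0.37, adjusted p = 0.00665), as was Prkra, the PKR activator PACT (-0.76 ± 0.16, adjusted p = 0.00270).

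Of 14 genes listed with PKR, 3 were higher (Eif2ak3, Adar and Ddit3) and 2 lower (Prkra and Stau1), with a median of 0.09. These shares, 21.4% and 14.3%, did not exceed those over all genes, 23.5% and 21.7%. Adar, which edits double-stranded RNA and is itself interferon-inducible, rose by 1.29 ± 0.15 (adjusted p = 5.73e-05). Ddit3, the stress transcription factor CHOP, rose by 1.63 ± 0.24 (adjusted p = 0.000332). Of 17 partners of cGAS and STING tested, 4 were higher and 4 lower, 23.5% each and thus close to the shares over all genes, with a median of 0.08. Trex1, a nuclease that clears cytosolic DNA, rose by 1.42 ± 0.17 (adjusted p = 7.97e-05) and Samhd1, which lowers the nucleotide pool, by 1.47 ± 0.12 (adjusted p = 6.57e-06). Enpp1, which degrades the cGAS product, had a log2 difference of -0.60 ± 0.19 (adjusted p = 0.0267).

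Of 20 other nucleic acid sensors and binders tested, 12 were higher (60.0%, beside 23.5% of all genes) and none lower (beside 21.7%), with a median of 1.16. Zbp1, a sensor of Z-form nucleic acid, rose most, with FPKM of 39.8, 36.8 and 34.1 in mice 2, 5 and 9 against 3.09 to 7.82 in control livers, a log2 fold change of 2.73 ± 0.25 (adjusted p = 1.64e-05). Aim2, the DNA sensor of an inflammasome, rose by 1.96 ± 0.16 (adjusted p = 7.72e-06), and Ifit2, an RNA-binding interferon-stimulated gene, by 2.26 ± 0.25 (adjusted p = 5.20e-05).

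Of the kinases and transcription factors shared by these pathways, 5 of 14 were higher (35.7%, beside 23.5% of all genes) and 2 lower (14.3%, beside 21.7%), with a median of 0.34. Both kinase genes that act on IRF3 were measured. Ikbke rose by 1.70 ± 0.19 (adjusted p = 6.10e-05), whereas Tbk1 had a log2 difference of 0.41 ± 0.26 (adjusted p = 0.225). With the acute phase genes Saa1, Saa2 and Saa3 left out and values rescaled, Tbk1 was called higher (0.77, adjusted p = 0.0430). Of the transcription factors, Irf7 rose from 12.3 ± 3.69 to 52.5 ± 11.2 (SD) FPKM, a log2 fold change of 2.12 ± 0.26 (adjusted p = 8.90e-05). Irf3 fell by 1.02 on the log2 scale (adjusted p = 0.000730), with 4.27, 4.33 and 3.07 in mice 2, 5 and 9 and 6.26 to 9.99 in control mice.

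**Figure D5:**
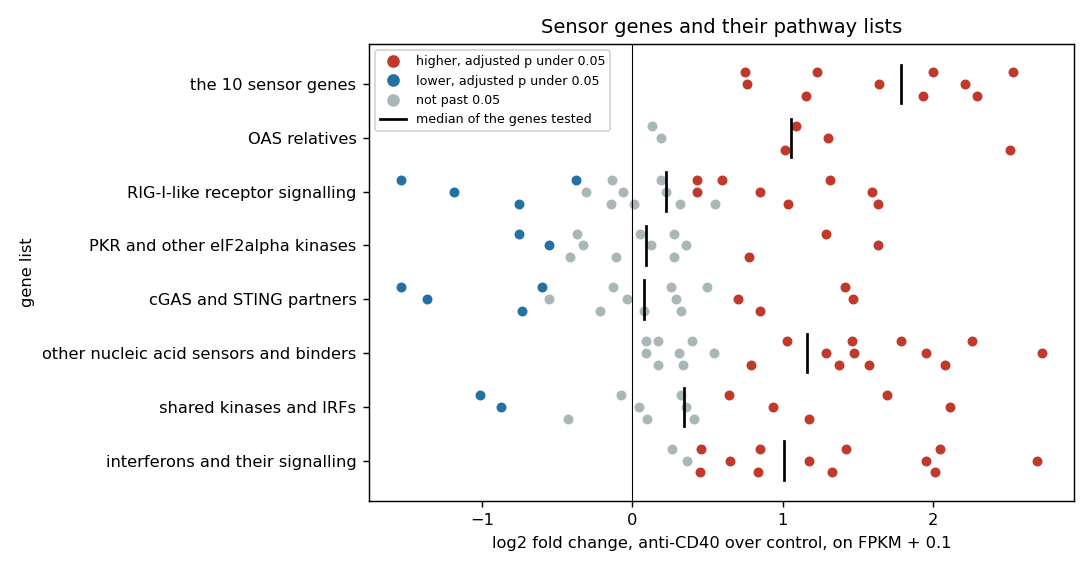
Log2 fold change (x axis, on FPKM + 0.1) of each tested gene in the 10 sensor genes and 7 pathway lists (rows), coloured by call at an adjusted p of 0.05, with the median as a black bar. The 10 sensor genes all lie at 0.75 or above, and lower calls (blue) occur in the lists of RIG-I-like receptor signalling, PKR, cGAS and STING partners, and shared kinases; with Saa1, Saa2 and Saa3 left out and values rescaled, the PKR list has none.

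Interferon genes themselves were hardly seen. Of 18 type I and type III interferon genes in the table, 16 were at the floor in all 9 mice, which at this depth does not show that they were absent. The others, named after their values were seen, were Ifnb1, with 1 read in mouse 5 (FPKM 0.170), and Ifnk, with 4, 7 and 0 reads in mice 2, 5 and 9 and 1 read in control mouse 8. Ifnk was called higher (adjusted p = 0.0458), but its groups overlapped and it overlaps Mob3b on the opposite strand. Of the 14 genes tested in the list of interferons and their signalling, 12 were higher (85.7%, beside 23.5% of all genes) and none lower (beside 21.7%), with a median of 1.01. Ifnk and the receptor gene Ifnlr1, both among the 12, had control means of 0.0243 and 0.0626 FPKM. They passed the filter on low values only through anti-CD40 mice. The count of 12 became 11 with 0.01 added and 10 under quantile normalization. It was 9 of 32 with no filter on low values and 14 with Saa1, Saa2 and Saa3 left out. In the ISRE-binding complex, Stat2 changed by 0.65 ± 0.21 (adjusted p = 0.0301, and 0.0985 under quantile normalization) and Irf9 by 0.45 ± 0.17 (adjusted p = 0.0481). The feedback inhibitors Socs1 and Usp18 rose by 2.69 ± 0.36 and 2.05 ± 0.26 (adjusted p = 0.000169 and 0.000119).

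Some named genes overlap another protein-coding gene in GENCODE M21, so reads could have been credited to either: Irf3, Irf7, Adar, Aim2, Traf3 and Ddit3 on the opposite strand, and Trex1 and Irf9 on the same strand. None of the 10 sensor genes does.

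By the root mean square distance of the 9 log2 values centred on the control mean, over 10147 other genes whose FPKM averaged 1 or more, the gene most like Ddx58 was Adar (distance 0.10). The gene most like Tmem173 was Syk (0.13), like Mb21d1 Cxcl16 (0.15), like Oas3 Cotl1 (0.15), like Oas2 Map7d1 (0.13), like Dhx58 Myo9b (0.18), like Eif2ak2 Fancc (0.12) and like Ifih1 Zc2hc1a (0.05). Oas1a and Oas1g, in which mouse 9 stood apart, had the most distant nearest genes, Mlkl (0.33) and Hp (0.42).

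The makeup of the liver RNA differed between the groups as well. The marker counts are to be read beside the 23.5% of all genes tested that were called higher and the 21.7% called lower. Of 10 hepatocyte markers 9 were lower, with a summed FPKM of 5205 to 6541 in anti-CD40 and 15620 to 28166 in control mice. All 6 Kupffer cell markers were lower (39.0 to 50.7 against 285 to 456), and Clec4f was at the floor in 1 anti-CD40 mouse. Of 8 monocyte and macrophage markers tested 6 were higher and 1 lower (285 to 401 against 45.3 to 80.5), and of 4 neutrophil markers tested all 4 were higher (4158 to 5135 against 17.8 to 150). Adgre1 was the lower one (mean 1.75 against 5.36 in control mice, adjusted p = 0.00209), and Csf1r was not called (adjusted p = 0.0837). Most of the monocyte and macrophage sum was Lyz2 (173 to 266 in anti-CD40 mice). Nearly all of the neutrophil sum was S100a8 and S100a9, and Mpo and Elane were too low to be tested. All 4 B cell markers (24.3 to 34.6 against 1.58 to 6.53) and 7 of 8 tested T and NK cell markers (11.2 to 12.8 against 3.16 to 4.79) were higher. Of dendritic cell markers 4 of 7 were higher. Their summed levels overlapped (92.8 to 108 against 42.4 to 115). Nearly all of the sum was Bst2 (84.2 to 98.6 in anti-CD40 mice), which was not called. Ccr9 and Xcr1 were not called either (log2 differences of 0.37 and -0.05, adjusted p = 0.290 and 0.896). Itgax went from a mean of 0.261 to 6.34. The groups of Itgax, Clec9a and Flt3 did not overlap, but those of Siglech did, and Flt3 was at the floor in 3 control mice. Flt3, the neutrophil marker Cxcr2, the T cell marker Cd8a and the B cell marker Cd79a, all counted as higher, were low in control mice. Their control means were 0.0481, 0.0556, 0.0946 and 0.0878 FPKM, so they passed the filter on low values only through anti-CD40 mice. Of endothelial markers 2 of 6 were higher (33.3%) and 1 lower (16.7%), shares not far from those over all genes. Their summed levels overlapped (67.4 to 75.4 against 64.5 to 91.7). The part of these shifts in the values of the sensor genes was not tested. Saa1, Saa2 and Saa3, acute phase genes, made up 25.4% to 25.9% of summed FPKM in anti-CD40 and 0.0449% to 0.380% in control mice. With them left out and each mouse rescaled, the median of all genes moved from 0.0056 to 0.35 and the share of calls that were higher from 52.0% to 77.4%. The median of the sensor genes lay 1.78 above that of all genes in both scalings. The counts of higher and lower genes became 11 and 2 in RIG-I-like receptor signalling, 6 and 0 with PKR, 9 and 3 in cGAS and STING partners, and 11 and 1 in shared kinases, beside 5635 and 1647 over the 13860 genes then tested. Under that rescaling Mavs and Irf3 stayed lower (-0.83 and -0.66, adjusted p = 0.00117 and 0.00464), while Prkra (-0.39, adjusted p = 0.0514) and Enpp1 (-0.24, adjusted p = 0.276) were no longer past 0.05. Tbk1, not called before, was then called higher (0.77, adjusted p = 0.0430).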

How the data were processed

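RNA from 9 mouse livers was sequenced by QuantSeq 3′ FWD on a NextSeq 500. The authors aligned reads to mm10 with STAR and deposited FPKM values from Cufflinks and CuffDiff, 1 per gene and mouse, with a floor of 0.01. The annotation and the treatment of reads that match several places are not given in the sources used here. Positions come from the table, whose starts count from 0 and were moved by 1.

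Mice were grouped by the treatment label. The 15 genes with a failed estimate were left out. No scaling was added. The 13807 genes whose FPKM averaged 0.1 or more over the mice were tested as log2(FPKM + 0.1) with limma 3.58.1 (lmFit and trended eBayes, in R 4.3.3), 2-sided, with Benjamini-Hochberg adjustment at 0.05. On simulated data with 200 changed genes, 83% of those changed by a log2 fold of 2 and 49% of those changed by 1 were recovered, with 9 false calls. Only 200 of 13807 genes were changed there, with independent noise, whereas 45.1% were called in these livers. Recovery and false calls depend on that share, so these figures do not carry over to the fit. Single genes and 13 within-mouse differences between genes were tested by 2-sided exact permutation over 84 splits, with a smallest p of 0.0238. Where nothing says more about the mice, p-values measure the spread between these samples.

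Whole reads were recovered from the steps between low FPKM values, at a tolerance of 0.05 reads, for 89.7% of 3652 genes averaging 0.1 to 1 FPKM and 78.7% of 5704 genes of 1 to 10. A count test was not run. Promoter windows came from RefSeq, GRCm38.p6, and transcripts from GENCODE M21. Python 3.11.15, scipy 1.17.1 and matplotlib 3.10.9 were used.

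The sensor genes, gene lists and pairs were chosen with earlier results of these data known. Besides the sensors, the genes named were a fixed set of 20 partners, from each list the 2 called genes of largest change (mean FPKM 1 or more), and the nearest gene to each sensor. A few genes of the lists are not reported here and were left out of their counts. Comparison kinases, the other called genes listed with PKR and the interferon genes above the floor were named in addition. So were Ifnlr1 and single cell type markers. Alternatives were other pseudocounts, filters, scalings and variance models, a fold of 2, and leaving out each mouse.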

Additional observations from a re-analysis of the deposited data

Results flagged for a closer look

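Among 48 results screened, a control mouse stood apart from the other 5 in 4, where chance gives about 1 in 20 (2.4 of 48). The gap is given as a share of the range of the 6 control mice, and was held against Dixon's 95% limit.

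The log2 difference between Ifih1 and Dhx58 was 2.20 in control mouse 4, with the next mouse at 1.20 (gap 0.671). This mouse had the highest control value of Ifih1 and the lowest of Dhx58. The FPKM of Ikbke was 4.60 in control mouse 12, with the next at 3.14 (gap 0.652). The FPKM of Oasl1 was 1.83 in control mouse 7, with the next at 1.04 (gap 0.710), and mouse 7 was above anti-CD40 mouse 9, at 1.66. The FPKM of Stat2 was 1.12 in control mouse 3, below the next at 1.93 (gap 0.720).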

How the results depend on the processing

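All 188 values of the 10 sensor genes under other settings were in the same direction, and 183 stayed past the threshold. Those that did not were Ifih1 with no filter on low values (0.76, adjusted p = 0.0668), without mouse 2 or mouse 5 (0.63 to 0.91 over the 9 mice left out), and Ifih1 (0.76) and Eif2ak2 (0.75) where a fold of 2 was required. With a mean FPKM of at least 1, Oas2 and Oas3 could not be tested. With Saa1, Saa2 and Saa3 left out and values rescaled, 19 of the other nucleic acid sensors and 12 of the shared kinases and IRFs were called, in place of 12 and 7. A fold of 2 or more left 3142 calls of 6230, and 6 in RIG-I-like receptor signalling, 2 in PKR, 4 in cGAS and STING partners, 4 in shared kinases and 7 in interferon signalling. The differences of 2 pairs changed sign with the pseudocount, neither past the threshold: Oas1a over Oas1g (0.31 with 1 added) and Oas1a over Oas3 (-0.21 with 0.01 added). Without mouse 9, the log2 fold changes of Oas1a and Oas1g were 2.44 and 2.73. With 2 mice against 6 the exact test cannot go below 0.0714. Low genes are limited by reads, as few as 6 for Oas1g in a control mouse. No paired analysis was possible because the groups share no mouse number.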
